A study of Mus musculus with 9 samples.

Results

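Lyz1, Mmp7, Ang4 and Itln1 encode secreted products of Paneth cells, and their expression is described here across 3 segments of the mouse small intestine and 3 high-fat diets. All probe sets that the platform annotation assigns to exactly 1 gene symbol among these 4 were taken, 7 probe sets in all, and the brightest (highest mean log2(signal + 16) over the 9 arrays) stood for its gene, which gives 4 of 18193 genes. The arrays measured RNA from mucosal scrapings of male C57BL/6J mice, an inbred strain with no transgene or deletion named in the labels, which were 9 weeks old when the diets began and ate them for 2 weeks by the sample labels, within a study whose feeding ran longer. The groups were the distal segment SI3, the middle segment SI2 and the proximal segment SI1, each from mice on 1 of 3 high-fat diets, whose fat was palm oil in HF-PO, olive oil in HF-OO and safflower oil in HF-SO. RNA of 6 mice was pooled per diet and segment and run on 1 array. Each segment therefore has 3 pools, 1 for each diet, and the same 6 mice gave all 3 segments of a pool. A low-fat group was not analysed here.

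Paneth cells sit at the base of the crypts of the small intestine, beside the stem cells, and release granules of antimicrobial proteins into the crypt lumen. Lyz1 encodes a lysozyme that cuts the peptidoglycan of bacterial walls. Mmp7 (matrilysin) is the protease that activates the alpha-defensin precursors in mouse Paneth cells, Ang4 is a ribonuclease-family protein that kills bacteria, and Itln1 is a lectin that binds sugars found on microbes. Paneth cells are known to be more frequent towards the ileum. All 7 probe sets passed the filter on low values, which kept the brighter probe sets, split at their median. Scraped mucosa also holds goblet cells, enterocytes, stem cells and immune cells. In such bulk samples, fewer cells of a type and less RNA per cell cannot be told apart.

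The sequences just before the gene starts are shown because the 4 genes moved together along the intestine. Lyz2, the lysozyme of macrophages, is added as a close neighbour of Lyz1. Some Lyz1 probes may also bind Lyz2 transcripts, but the bases shown lie before the start and say nothing of that. The sequences are those of RefSeq, build GRCm38.p6, written 5′ to 3′ on the strand of the gene and ending at the base before the start. Lyz1 (chr10:117292869-117292968, minus strand) and Lyz2 (chr10:117282273-117282372, minus strand) are given for the last 100 bases, with the bases that differ between them in capitals.
Lyz1: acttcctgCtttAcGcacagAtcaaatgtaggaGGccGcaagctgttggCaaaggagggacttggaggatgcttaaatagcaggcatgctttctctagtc
Lyz2: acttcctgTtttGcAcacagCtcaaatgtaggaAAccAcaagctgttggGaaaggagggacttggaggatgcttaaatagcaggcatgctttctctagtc
These 2 stretches were identical at 92 of 100 positions (92.0%). Over 250 bases laid side by side without gaps, Lyz1 and Lyz2 matched at 152 positions (60.8%), whereas the windows of 250 bases of different members, laid side by side in the same way, matched at 20.4% to 26.8% of positions.

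For the other 3 genes the 250 bases before the start are given, with motif matches in capitals. Windows of Mmp7 (chr9:7691840-7692089, plus strand), Ang4 (chr14:51773591-51773840, minus strand) and Itln1 (chr1:171535295-171535544, minus strand) follow.
Mmp7: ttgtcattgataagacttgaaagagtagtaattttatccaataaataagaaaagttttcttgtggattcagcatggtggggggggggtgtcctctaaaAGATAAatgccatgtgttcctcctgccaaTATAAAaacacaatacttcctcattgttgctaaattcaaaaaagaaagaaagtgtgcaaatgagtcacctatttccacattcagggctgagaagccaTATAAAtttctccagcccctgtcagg
Ang4: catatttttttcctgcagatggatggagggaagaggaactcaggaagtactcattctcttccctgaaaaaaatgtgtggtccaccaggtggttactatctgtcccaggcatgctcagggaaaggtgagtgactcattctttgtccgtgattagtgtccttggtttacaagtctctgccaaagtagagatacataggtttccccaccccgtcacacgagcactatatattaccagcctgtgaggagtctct
Itln1: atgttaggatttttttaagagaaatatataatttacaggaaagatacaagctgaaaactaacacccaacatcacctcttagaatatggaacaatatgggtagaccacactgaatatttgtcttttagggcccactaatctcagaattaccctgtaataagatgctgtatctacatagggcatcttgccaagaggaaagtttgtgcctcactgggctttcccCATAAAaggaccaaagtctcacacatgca
Motifs were searched on both strands, and the share of all 32851 windows of this length in the table that hold each is given. The TATA box was written TATAAA and was held by 12.4% of windows. The core bound by TCF and LEF factors of the Wnt pathway was written CTTTGA and was held by 13.8% of windows. The core of caudal-type homeobox factors was written TTTATG and was held by 10.8% of windows. An E-box of the kind bound by basic helix-loop-helix factors was written CAGCTG and was held by 13.0% of windows. The core of the GATA factors was written AGATAA and was held by 9.99% of windows. Mmp7 had TATAAA at 26 to 21 and at 123 to 118 bases before the start and AGATAA at 152 to 147 bases, Itln1 had TTTATG on the opposite strand at 29 to 24 bases, and the windows of Lyz1 and Ang4 held none of these letters. No matches overlapped. A match is a description of letters and says nothing of binding.

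All 4 genes were higher in SI3 than in SI1, the comparison that sets the distal against the proximal part of the intestine. Ang4 rose most, then Mmp7, Itln1 and Lyz1. Signal is the authors' MAS5 signal, a linear brightness per probe set; changes are differences of log2(signal + 16) from limma's linear model with the diet pool as a block, and an adjusted p under 0.05 counts as a call.

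Ang4 (probe set 1438364_x_at) had signals of 20618, 27535 and 24453 in SI3, 13502, 14957 and 14637 in SI2 and 4101, 3421 and 3174 in SI1, each in the order HF-PO, HF-OO and HF-SO. All SI3 arrays lay above all SI2 arrays, and these above all SI1 arrays. Ang4 averaged 24202 ± 3465 in SI3, against 3565 ± 480.3 in SI1 (SD, n = 3 pools), a 6.79-fold ratio of means. The log2 change was 2.76 with an SE of 0.14 (adjusted p = 2.22e-05, limma), and it ranked 45 of 10977 genes by the size of the rise.

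Mmp7 (1449478_at) had signals of 3433, 4816 and 4568 in SI3, 1886, 2237 and 2482 in SI2 and 848.2, 732.8 and 653.1 in SI1, in the same order of diets. The 3 segments did not overlap. Mmp7 averaged 4272 ± 737.3 in SI3, against 744.7 ± 98.1 in SI1 (SD, n = 3 pools), a 5.74-fold ratio. The log2 change was 2.49 with an SE of 0.17 (adjusted p = 5.9e-05, limma), rank 56 by the size of the rise.

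Itln1 (1418165_at) had signals of 20373, 25719 and 23682 in SI3, 12746, 14843 and 15554 in SI2 and 7765, 5944 and 4825 in SI1. Here too every array of a more distal segment was above every array of the segment before it. Itln1 averaged 23258 ± 2698 in SI3, against 6178 ± 1484 in SI1 (SD, n = 3 pools), a 3.76-fold ratio. The log2 change was 1.93 with an SE of 0.19 (adjusted p = 0.000304, limma), rank 99.

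Lyz1 (1439426_x_at) had signals of 45551, 48392 and 44291 in SI3, 34450, 35444 and 34396 in SI2 and 24862, 20855 and 19773 in SI1. Its segments were ordered the same way with no overlap, over a narrower range. Lyz1 averaged 46078 ± 2100.3 in SI3, against 21830 ± 2681 in SI1 (SD, n = 3 pools), a 2.11-fold ratio, and its log2 change was 1.08 with an SE of 0.10 (adjusted p = 0.000239, limma), rank 351. Lyz1 reached 37.0% to 85.0% of the highest signal of its array, Ang4 at most 48.4%, Itln1 at most 45.4% and Mmp7 at most 8.77%. Whether brightness near the top of the scale narrowed the range of Lyz1 was not tested.

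**Figure D1:**
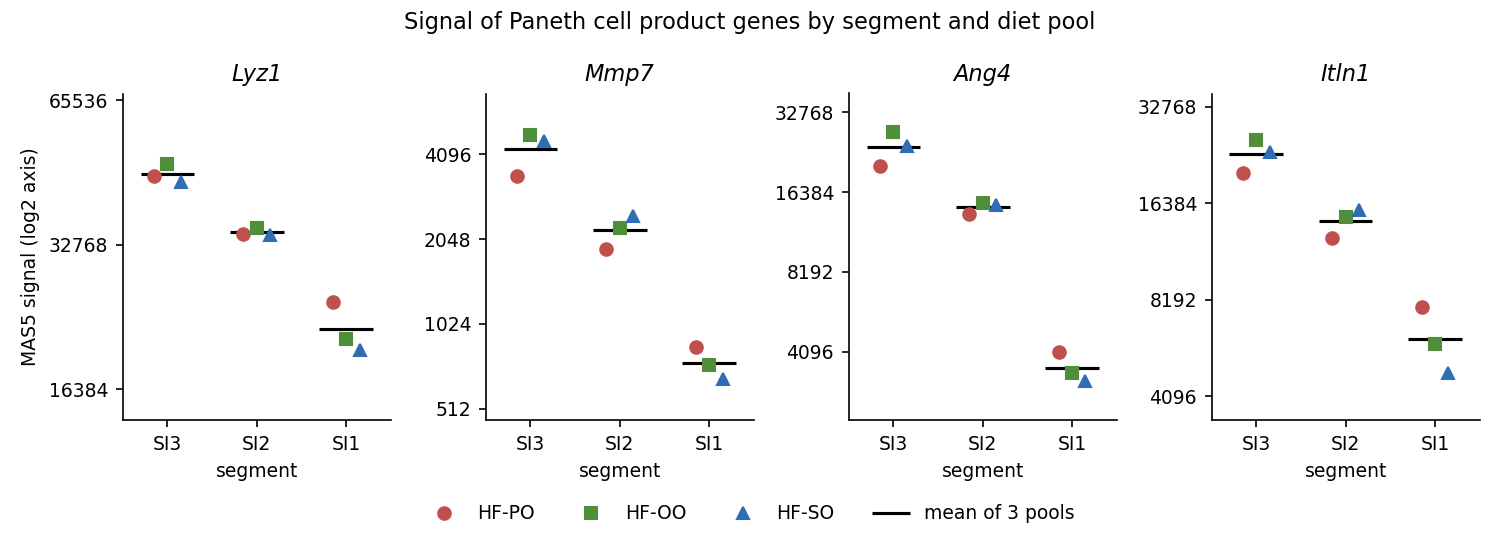
MAS5 signal of Lyz1, Mmp7, Ang4 and Itln1 (log2 axis, a separate range for each gene) in SI3, SI2 and SI1; points are arrays, 1 for each diet pool, and black lines are means of 3 pools. In every panel the 3 SI3 arrays lie above the 3 SI2 arrays and these above the 3 SI1 arrays; palm oil (HF-PO) is the highest point in SI1 in all 4 panels and the lowest in SI3 for Mmp7, Ang4 and Itln1.

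All 4 genes passed the test as higher in SI3, where 25.0% of the 22519 probe sets tested did so. No overlap between the 3 segments, with SI3 highest and SI1 lowest, was seen in 4 of 4 genes and in 7.39% of all probe sets tested. Over all tested probe sets the change had a median of 0.08. The p-values measure how evenly the segment change held across the 3 pools, each on a different diet, not the spread between single mice. SI3 was above SI1 in each of the 3 pools for each gene. In the HF-PO, HF-OO and HF-SO pools, the log2 change of Ang4 was 2.33, 3.00 and 2.94, that of Mmp7 2.00, 2.69 and 2.78, that of Itln1 1.39, 2.11 and 2.29, and that of Lyz1 0.87, 1.21 and 1.16. The smallest change was thus in the HF-PO pool for 4 of 4 genes. Among all probe sets higher in SI3, 43.0% had their smallest change in that pool.

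The comparisons of SI2 with SI1 and of SI3 with SI2 asked where along the intestine the difference lay, and the 4 genes rose in both steps. Against SI1, Ang4 rose in SI2 by 2.01 on the log2 scale (SE 0.14, adjusted p = 0.000418), Mmp7 by 1.54 (SE 0.17, adjusted p = 0.00237), Itln1 by 1.24 (SE 0.19, adjusted p = 0.00841) and Lyz1 by 0.68 (SE 0.10, adjusted p = 0.00758), all by limma. Thus 4 of 4 genes were higher in SI2, where 8.07% of all probe sets were. Ang4 had made 73.8%, 70.7% and 74.8% of its log2 change by SI2 in the HF-PO, HF-OO and HF-SO pools, and the other genes between 51.4% and 73.6%. Lyz1 and Itln1 lost the call in this step without HF-OO (adjusted p = 0.0874 and 0.0848) and without HF-SO (0.0819 and 0.0711), and kept it without HF-PO (0.0366 and 0.0184).

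Between SI3 and SI2, Mmp7 rose by 0.95 (SE 0.17, adjusted p = 0.00879), Ang4 by 0.74 (SE 0.14, adjusted p = 0.0119), Itln1 by 0.69 (SE 0.19, adjusted p = 0.0407) and Lyz1 by 0.41 (SE 0.10, adjusted p = 0.0297), by limma. These are 4 of 4 genes, where 10.4% of all probe sets were higher in SI3. Mmp7 had the largest of these 4 changes in this step, and Ang4 in the step before it. The step did not pass for any of the 4 without the HF-OO pool (Mmp7 0.0954, Ang4 0.104, Itln1 0.212 and Lyz1 0.18), for Ang4, Itln1 and Lyz1 without HF-SO (0.0773, 0.0947 and 0.125), or for Lyz1 without HF-PO (0.0703), as adjusted p-values. With quantile normalization Lyz1 rose by 0.14 (adjusted p = 0.424), where its call was lost.

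Lyz1 and Ang4 had more than 1 probe set, and Lyz2 gives a measure of the neighbouring gene. The other bright probe set of Lyz1, 1436996_x_at, had 42726, 43240 and 39277 in SI3 and 25121, 24178 and 20916 in SI1, in the order HF-PO, HF-OO and HF-SO, a log2 change of 0.84 (SE 0.08, adjusted p = 0.000321, limma). Its dim probe set, 1450822_at, averaged 389.1 ± 20.6 in SI3, against 210.2 ± 97.8 in SI1 (SD, n = 3 pools), and changed by 0.95 (SE 0.28, adjusted p = 0.0305). Neither step of that dim probe set passed (adjusted p = 0.0781 for SI2 against SI1 and 0.887 for SI3 against SI2). All 3 probe sets were thus higher in SI3, with ratios of means of 2.11, 1.78 and 1.85.

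The Lyz2 probe set averaged 7030 ± 736.5 in SI3, against 4323 ± 296.6 in SI1 (SD, n = 3 pools), and rose by 0.70 (SE 0.11, adjusted p = 0.00235, limma). Lyz2 is made by macrophages, and of 8 macrophage markers 6 fell in SI3 and 2 rose, Lyz2 itself and Itgam (0.65), an integrin of myeloid cells. Csf1r, the receptor for the macrophage growth factor, changed by -2.00, and the complement genes C1qa and C1qb by -1.82 and -2.13. The summed signal of the 8 markers was 9015 to 10761 in SI3, against 13488 to 14100 in SI1. Without Lyz2, left out after the values were seen, the other 7 summed to 2638 to 2932 in SI3, against 8826 to 9989 in SI1. How far Lyz1 and Lyz2 transcripts bind each other's probes was not tested.

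The other probe set of Ang4, 1440832_at, had 8716, 16035 and 14467 in SI3, 6996, 6240.1 and 7985 in SI2 and 2581, 1894 and 1496 in SI1. It changed by 2.69 between SI3 and SI1 (SE 0.28, adjusted p = 0.000429, limma), close to the brighter probe set, but its change of 0.84 between SI3 and SI2 did not pass (adjusted p = 0.0766).

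**Figure D2:**
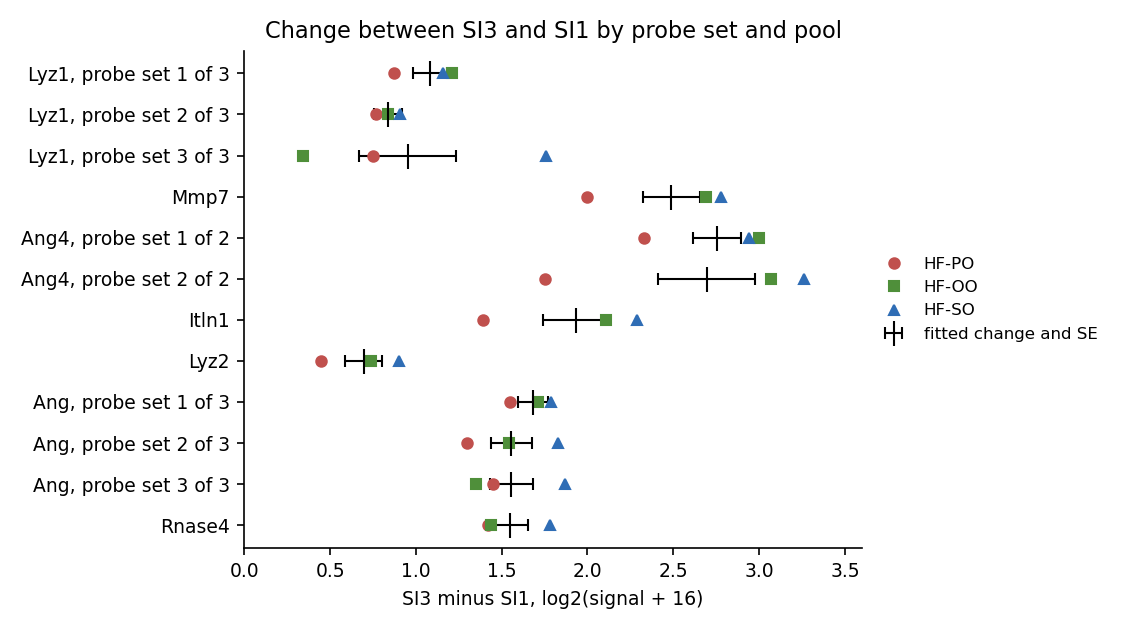
Difference between SI3 and SI1 in log2(signal + 16) for each probe set of Lyz1, Mmp7, Ang4 and Itln1 and of the relatives Lyz2, Ang and Rnase4, numbered from the brightest; coloured points are the 3 diet pools and black bars the fitted change with its SE. All points lie above 0, and the HF-PO point is the lowest of the 3 except for the dimmest probe sets of Lyz1 and Ang, where HF-OO is.

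A list of other Paneth cell genes was written from general knowledge, but with earlier results of these data known. Most encode granule products, but it also holds Nupr1, a stress-induced nuclear protein, and Slc30a2, a zinc transporter. Of 47 listed genes 10 had a probe set of their own and 8 were bright enough to test; 5 rose and 2 fell in SI3 against SI1, with a median of 2.07, where 25.0% of all probe sets rose and 19.2% fell. Without Nupr1, left out after the values were seen, 4 of 7 rose and 2 fell. Mptx1, a pentraxin of Paneth cells, rose by 4.15 (SE 0.26, adjusted p = 4.34e-05), to 4314 in SI3, against 225.4 in SI1. Pla2g2a, a gene of the secreted phospholipase family, rose by 2.70, and Nupr1 by 1.96. The lectins Reg3g and Reg3b, which enterocytes also make, rose by 3.44 and 2.19, whereas Reg3a fell by 0.49. Rnase1, a secreted ribonuclease also made by the pancreas, fell by 1.88. Exocrine pancreas markers fell too, in 8 of 8 tested, and any part of pancreas RNA in the Rnase1 signal was not tested. Slc30a2 changed by -0.25 (adjusted p = 0.102). In SI2 against SI1, 6 of the 8 rose and 1 fell (8.07% of all probe sets rose), and in SI3 against SI2, 5 rose and 2 fell (10.4% rose).

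Alpha-defensins are the most abundant granule peptides, and their genes are near-copies, so most had no probe set of their own. Defa3 and Defa31 did, but these averaged 47.5 and 13.2 in SI3, against 20.4 and 13.5 in SI1, too dim to test. A probe set that the annotation assigns to 2 alpha-defensin genes at once had 33571, 37440.4 and 33583 in SI3, 21859, 21492 and 23571 in SI2 and 336.7, 422.4 and 202.0 in SI1, in the order HF-PO, HF-OO and HF-SO. Its log2 change between SI3 and SI1 was 6.75 (SE 0.20, adjusted p = 3.41e-06, limma), of which 6.11 fell between SI2 and SI1. Another such probe set, shared by a different pair of genes, averaged 43248 ± 2421 in SI3, against 25085 ± 3066 in SI1 (SD, n = 3 pools), and changed by 0.79 (adjusted p = 0.00208). Neither of these shared probe sets passed between SI3 and SI2 (adjusted p = 0.0642 and 0.135, limma). Both measure several genes, so no gene is named for them.

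Genes that steer the Paneth and secretory lineage, or granule release, were higher in SI3 in 10 of 19 tested (24 listed), lower in 2 and not past the test in 7, with a median of 0.33, where 25.0% of all probe sets were higher and 19.2% lower. Atoh1, the transcription factor that sets the secretory fate, rose by 1.09 (SE 0.10, adjusted p = 0.000264), to 1470.1 in SI3, against 681.4 in SI1. Spdef, which drives maturation of goblet and Paneth cells, rose by 1.18, Sox9, needed for Paneth cells to form, by 0.95, and Fzd5, the Wnt receptor they need to mature, by 0.66. The secretory-cell stress sensor Ern2 rose by 1.27 and Bhlha15, a factor of secretory cells, by 0.64, but Xbp1, the factor of the unfolded protein response, stood at 0.07 (adjusted p = 0.519). Kcnn4, a potassium channel that takes part in granule release, rose by 0.79. The autophagy genes went different ways: Atg7 rose by 0.33, Atg5 fell by 0.25 and Atg16l1 stood at -0.22 (adjusted p = 0.189, limma). The other gene of the list that was lower was Irgm1 (-0.42). Gfi1 (0.22), Dll4 (0.29), Rab27a (0.27), Tcf7l2 (0.06) and Ern1 (0.01) did not pass the test either. In SI2 against SI1, 3 of the 19 were higher, Atoh1 (0.40), Fzd5 (0.43) and Fgfr3 (0.52), where 8.07% of all probe sets were, and 16 did not pass the test.

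The relatives of Ang4 did not share 1 direction. Ang, the angiogenin with a role in vessel growth, rose by 1.68 (SE 0.09, adjusted p = 2.29e-05), to 8351 ± 290.6 in SI3, against 2594 ± 206.4 in SI1 (SD, n = 3 pools), and Rnase4, a ribonuclease that lies next to Ang in the genome, by 1.55. In both genes the larger step was the distal one, 1.08 between SI3 and SI2 for each, against 0.60 and 0.47 between SI2 and SI1, where Ang4 had 0.74 and 2.01. Rnase6 fell by 0.49, Rnase1 as given above, and Rnh1, the inhibitor of these ribonucleases, stood at 0.02 (adjusted p = 0.901, limma). How far transcripts of Ang4 and its relatives bind each other's probes was not tested.

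The relatives of Mmp7 that were bright enough to test mostly went the other way. Of 14 matrix metalloproteinases and their inhibitors, 7 were tested, 6 fell in SI3 against SI1 and 1 did not pass the test, with a median of -1.35, where 19.2% of all probe sets fell. Mmp10, stromelysin 2, fell by 2.81 (SE 0.17, adjusted p = 3.93e-05), to 142.7 in SI3, against 1073 in SI1, Mmp13, a collagenase, fell by 1.78, Mmp9, a gelatinase, fell by 1.56 and Mmp14, a membrane-bound protease, fell by 1.35. The inhibitor Timp2 fell by 0.42, and Timp3 stood at -0.51 (adjusted p = 0.0621). No comparison of the size of these changes with that of Mmp7 was tested.

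**Figure D3:**
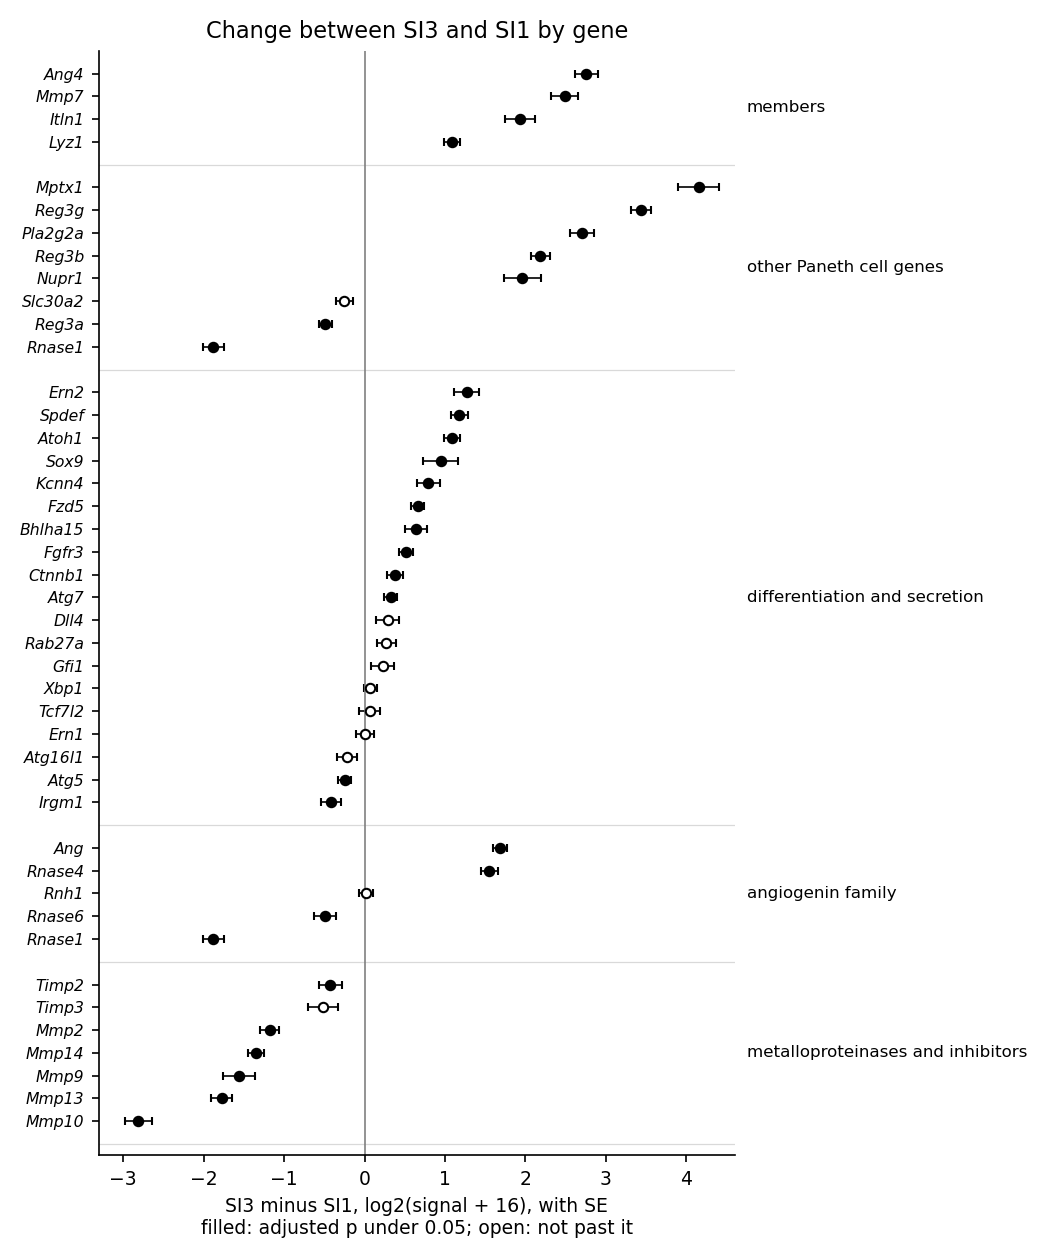
Change between SI3 and SI1 in log2(signal + 16) with its SE for Lyz1, Mmp7, Ang4 and Itln1 and for 4 gene lists; filled points passed an adjusted p of 0.05 and open points did not. The 4 genes lie between 1.08 and 2.76, while tested metalloproteinases and their inhibitors all lie below 0.

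Markers of other cells also differed between the segments, and their counts are set against 25.0% of all probe sets higher and 19.2% lower in SI3 than in SI1. Of 9 goblet cell markers tested, 7 were higher in SI3 than in SI1 and 2 did not pass the test, with a median of 0.58, the mucin gene Muc2 among them (1.19), and their summed signal was 196353 to 209939 in SI3, against 126029 to 146381 in SI1. Of 6 stem cell markers 4 rose and 1 fell. Olfm4 rose by 0.62 and Axin2 by 1.73, Rnf43 changed by -0.54, and Lgr5 stood at 0.12 (adjusted p = 0.507, limma). The sums of the stem cell markers were 14279 to 16706 in SI3 and 8402 to 11357 in SI1. Of 7 cycling cell markers 5 rose, with sums of 11653 to 14840 in SI3 and 9189 to 11385 in SI1. Per the labels adhering pancreas was removed, yet exocrine pancreas markers fell in SI3 in 8 of 8 and summed to 953 to 1044 in SI3, against 36684 to 47674 in SI1. Of 5 enterocyte markers 1 rose and 2 fell, and of 6 smooth muscle markers 2 fell. Of 2 tested genes of fat and mesothelium, Adipoq rose by 2.69 and Cidec fell by 1.43. The part of these cells in the changes of the 4 genes was not tested.

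The 4 genes were alike in pattern. Over the 9 arrays, which include the segment differences, their log2 signals correlated pairwise with Pearson's r of 0.98 to 0.99; after the mean of each segment was taken out, r was 0.53 to 0.92, lowest for Lyz1 and Mmp7 and highest for Ang4 and Itln1. The arrays of a diet share mice, so these values are descriptions. The r within segments was worked out for these 4 genes only, so it does not show a likeness particular to them. Among 10977 genes, the pattern most like that of Mmp7 was that of Mptx1 (r = 0.998, n = 9 arrays), followed by Garem1, Itln1 and Pla2g2a. For Itln1 it was Mmp7 (r = 0.993), followed by Lyz1, Mptx1 and Nolc1. For Lyz1 it was the chemokine gene Ccl6 (r = 0.995), followed by Itln1, Fam151a and Ang4. For Ang4 it was Garem1 (r = 0.995), followed by Osr2, Pmp22 and Gsdmc2.

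The comparison of diets asked whether the kind of fat changes expression in a segment. With 1 array per diet and segment there is no replicate check and no p-value, and the values describe these pools. By the brightest probe sets, no diet stood 1.5-fold or more above or below both others for any of the 4 genes. A diet did stand apart in this way for 7.34% of all probe sets tested in SI3, 6.31% in SI2 and 6.67% in SI1, so most probe sets were like the 4 genes in this. In SI3 the HF-PO signal of Mmp7, 3433, was 0.71 times that of HF-OO (4816) and 0.75 times that of HF-SO (4568). Ang4 had ratios of 0.75 and 0.84 and Itln1 of 0.79 and 0.86 to the same diets, while Lyz1 lay between them (0.94 and 1.03). In SI1 the order was the opposite, with HF-PO highest for all 4: the ratios to HF-OO and HF-SO were 1.31 and 1.61 for Itln1, 1.20 and 1.29 for Ang4, 1.16 and 1.30 for Mmp7 and 1.19 and 1.26 for Lyz1. In SI2 HF-PO was lowest for Mmp7, Ang4 and Itln1. The dim probe set of Lyz1 did meet the 1.5-fold rule in SI1, with 101.2 for HF-SO, against 239.2 for HF-PO and 290.3 for HF-OO.

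HF-PO was thus the highest diet in SI1 and the lowest in SI3 for 3 of 4 genes, a pattern picked after the values were seen, which 14.6% of all probe sets tested showed and 17.6% of those higher in SI3 than in SI1. The dimmer probe set of Ang4 showed it with larger gaps and met the 1.5-fold rule in SI3. Its HF-PO signal there, 8716, was 0.54 times that of HF-OO (16035) and 0.60 times that of HF-SO (14467). In SI1 its ratios were 1.36 and 1.73, but in SI2 HF-PO lay between the other diets. Among the 8 other Paneth cell genes 2 showed the pattern, Mptx1 and Nupr1. For Mptx1 the HF-PO signal in SI3 was 3069, against 5284 for HF-OO and 4588 for HF-SO, and in SI1 it was 275.7, against 230.0 and 170.5. In SI2 it was 913.0, against 1480.2 and 1559.6. Reg3a, by contrast, was highest with HF-PO in all 3 segments.

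**Figure D4:**
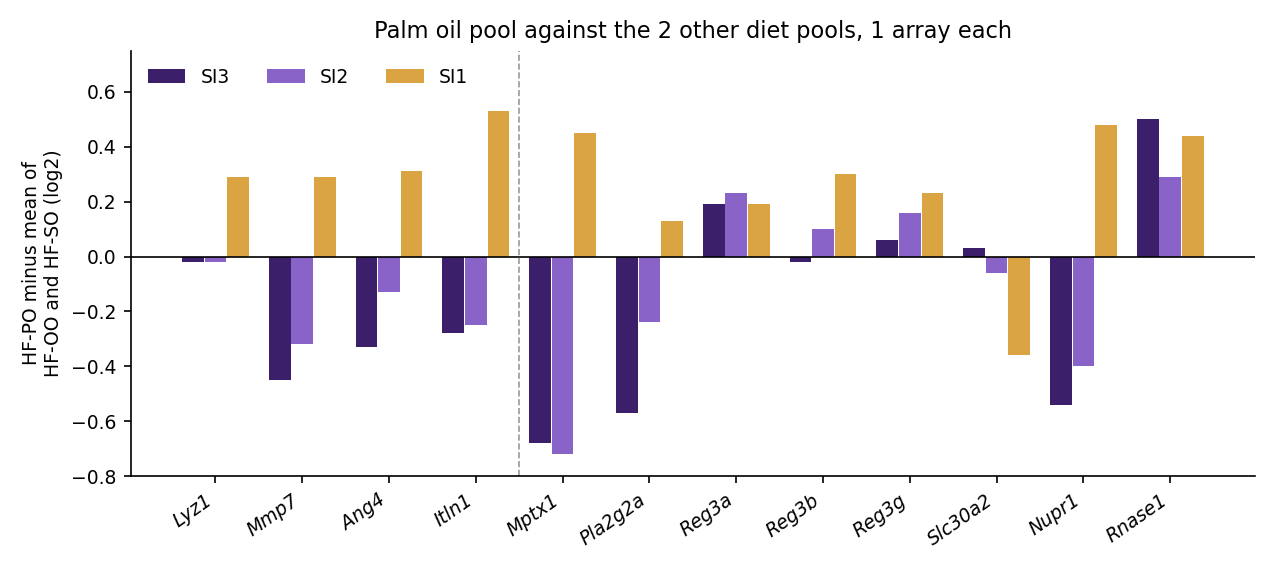
Difference in log2(signal + 16) of the HF-PO array from the average of the HF-OO and HF-SO arrays, by segment, for Lyz1, Mmp7, Ang4 and Itln1 (left of the dashed line) and 8 other Paneth cell genes; each bar rests on 1 array per diet. Mmp7, Ang4 and Itln1 lie at -0.45, -0.33 and -0.28 in SI3 and at 0.29, 0.31 and 0.53 in SI1.

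The arrays themselves were alike in scale: the median signal was 94.4 to 105.9 and the upper quartile 440.4 to 472.3. Precision is limited by how few arrays there are.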

How the data were processed

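Each of 9 Affymetrix arrays measured RNA pooled from 6 mice, 1 array per segment and diet. The authors made 1 linear signal intensity for each probe set with MAS5, per the submitters' processing notes, which give no version. The 2% trimmed mean of every array in the deposited table is 500.0, so the authors' scaling was kept. Of 45101 probe sets, 64 array controls were left out; 34945 carried 1 gene symbol in the platform annotation, 932 several and 9160 none there. All 7 probe sets of the 4 genes had the same symbol in the RefSeq gene table.

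Signals were taken as log2(signal + 16). The 22519 probe sets with a mean at or above the median of all (6.80) were tested. limma 3.58.1 (R 4.3.3) fitted segment and diet pool, with empirical Bayes variances and two-sided tests, with Benjamini-Hochberg adjustment across every probe set tested. The pool was a block because its segments come from the same 6 mice; departures from segment means correlated with r of -0.05 to 0.15 within pools and -0.13 to 0.05 between them. Nothing says the pools are otherwise replicated, and the residual also holds any difference of segment effects between diets. The model was checked on simulated data with independent noise and no difference between pools. Only large changes were simulated, so the check does not cover pool differences or small changes. Summaries used pandas 2.3.3 and figures matplotlib 3.10.9, under Python 3.11.15.

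Alternatives were other pseudocounts (1 and 64), no filter, quantile normalization, median centring, no block, the mean of a gene's probe sets and each pool left out. The genes and lists were chosen with earlier results of these data known. Genes named are the 4, those of the lists, and for each of the 4 the 4 genes with the highest correlation.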

Additional observations from a re-analysis of the deposited data

Results flagged for a closer look

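For Mmp7, Ang4 and Itln1, HF-PO lay above both other diets in SI1 and below both in SI3 and SI2. The HF-PO array was set against the average of the HF-OO and HF-SO arrays in log2(signal + 16). This contrast in SI3 minus that in SI1 was -0.74 for Mmp7, -0.65 for Ang4 and -0.81 for Itln1. For SI2 minus SI1 it was -0.61 for Mmp7, -0.45 for Ang4 and -0.79 for Itln1. These opposite directions rest on 1 array per diet and segment, and the difference was not tested.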

How the results depend on the processing

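All 40 changes of the 4 genes between SI3 and SI1 kept their direction and their call under the 10 alternatives, with log2 changes of 2.63 to 2.97 for Ang4, 2.34 to 2.73 for Mmp7, 1.75 to 2.20 for Itln1 and 0.89 to 1.19 for Lyz1. Of 40 changes between SI2 and SI1, 6 lost the call, and of 40 between SI3 and SI2, 15 did, with 0 of 120 reversed. The calls lost without a pool stand with the results. With no filter on low values, 45037 probe sets were tested and adjusted p was 0.068 for Lyz1 and 0.0633 for Itln1 in SI2 against SI1, and 0.143 for Lyz1, 0.0576 for Mmp7, 0.0722 for Ang4 and 0.154 for Itln1 in SI3 against SI2. In that step Itln1 had 0.0719 with quantile normalization and Lyz1 0.162 (log2 change 0.27) by the mean of its probe sets. Of 60 differences of HF-PO from the other diets, 58 moved by less than the gene's residual SD in the model. The other 2 were Ang4 in SI3, -0.57 by the mean of its probe sets, and Lyz1 in SI1, 0.41 with quantile normalization.

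With no filter, the probe sets called numbered 604 for SI2 against SI1, 1681 for SI3 against SI2 and 4666 for the 3 segments together, against 3375, 4787 and 9154. With 1 pool left out, which leaves fewer residual degrees of freedom, they numbered 5596 to 7571 for SI3 against SI1 (9969 with all pools), 545 to 767 for SI2 against SI1, 1329 to 2379 for SI3 against SI2 and 3710 to 5749 for the 3 segments, the lowest each time without HF-OO. Without HF-SO they numbered 6476, 633, 1729 and 4657. Without the pool as a replicate block, 10178, 3823, 5136 and 9716 were called and no call of the 4 genes changed. Diet differences have no replicate.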
